A study of Mus musculus with 9 samples.

Results

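The genes described here are 37 genes of glycolysis, glucose and lactate transport and the response to low oxygen, taken from a fixed list and read in quiescent MEFs (fibroblasts, the cells of connective tissue, cultured from mouse embryos). The list was chosen with earlier results of these data known. A probe set, the group of array probes that measures a gene, was used where the platform annotation gave it 1 gene symbol, and the brightest was taken where a gene had more. By that rule 34 of the 37 genes were measured, among 19937 genes in all. Gapdh was named only on 11 probe sets shared with other symbols, and Gpi1 and Eno1 were not named in the annotation used here. Of the 34, 32 had a mean level at or above 7.24 on the log2 scale, the 40th percentile of gene means, and were tested. Car9 and Ankrd37 lay below it.

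Cdkn1b encodes p27, an inhibitor of the cell cycle, and cells of 3 of its genotypes were compared on 9 Affymetrix arrays, 3 per genotype. The genotypes were wild type (WT), p27CK (CK) and p27KO (KO), and all cells had been cultured in DMEM with 10% fetal bovine serum before 72 h of serum starvation, after which fibroblasts rest outside the cell cycle. In published work p27CK names a p27 protein unable to bind cyclins or their partner kinases, but the labels give only the name. The extraction protocol given for every sample speaks of wild-type and delta51 mice, and which of the mutants delta51 refers to is not stated there. The strain and the age of the embryos are not given in the sources used here. Whether arrays of 1 genotype stem from separate embryos or cultures is not stated either. The p-values therefore measure only how far these arrays spread, possibly for technical reasons, and effects of genotype and of culture cannot be told apart.

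Glycolysis splits glucose into pyruvate in the cytosol. Glucose enters through transporters of the Slc2a family, is trapped and committed by hexokinases and phosphofructokinases, and passes through aldolase, triose phosphate isomerase, phosphoglycerate kinase, enolase and pyruvate kinase, after which lactate dehydrogenase can turn pyruvate into lactate for export. When oxygen is low, the hypoxia-inducible factors (HIFs) escape the prolyl hydroxylases that mark them for degradation and switch on glycolytic genes together with genes for blood vessel growth, mitophagy and collagen modification. Fibroblasts express many of these genes in normal air as well.

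Arrays of a genotype correlated at 0.995 to 0.998 across probe sets and arrays of different genotypes at 0.964 to 0.975. Cdkn1b, the targeted gene, had a log2 level on its brighter probe set of 11.46 ± 0.04 in WT, 11.10 ± 0.09 in CK and 7.38 ± 0.11 in KO (SD over 3 arrays). Its other probe set did not fall in KO (7.43 in WT and 7.60 in KO). Of 10 fibroblast markers, 9 had means of at least 9.93 in every genotype, while Thy1 had 11.73 in WT, 11.69 in CK and only 7.14 in KO, below 7.24. The mean of the 10 was 12.57 to 12.69 on the WT arrays, 12.28 to 12.41 on the CK arrays and 11.61 to 11.65 on the KO arrays. Cartilage markers differed too, with a mean over 6 genes of 8.97 to 9.23 in WT, 7.56 to 7.61 in CK and 10.95 to 11.34 in KO. Not every member followed this mean. Hapln1 was lower in KO (6.21) than in WT (7.77). In CK, Acan and Matn1 had means of 6.64 and 6.38 against 6.42 in WT for each, all below 7.24. The largest drop in CK was that of Cnmd, from 13.33 in WT to 7.30. Of the markers of macrophages, endothelium, skeletal muscle and neurons, 4 of 6, 4 of 5, 4 of 5 and 4 of 5 stayed below 7.24 in every genotype, as did 1 of 5 epithelial and 2 of 4 adipocyte markers. Others did not, and several differed by genotype. The macrophage marker Cd68 had means of 10.64 in WT, 8.59 in CK and 7.99 in KO, and Lyz2 had 6.90, 7.59 and 8.83. The endothelial Tek had 8.77, 6.51 and 6.80 and the neuronal Map2 10.57, 9.35 and 7.63 in the same order. The epithelial Krt19 and the adipocyte Fabp4 were highest in CK, at 8.82 and 8.96 against 7.52 and 7.93 in WT. In such bulk RNA, fewer cells of a type and less RNA per cell cannot be told apart. The part of these marker differences in the results below was not tested.

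In CK cells most glycolysis and hypoxia genes that differed from WT were higher, while in KO cells they went both ways. Of the 32 tested, 18 rose and 3 fell in CK versus WT (65.6% called), against 62.9% of all 11962 genes called in that comparison, where 30.7% rose and 32.1% fell. The members' share called is close to that of all genes. What differs from all genes is the direction, with 56.2% of members that rose and 9.38% that fell. In KO versus WT, 12 rose and 11 fell (71.9%), against 51.2% of all genes, of which 26.6% rose and 24.6% fell. In CK versus KO, 17 were higher and 4 lower in CK (65.6%), against 62.2% of all genes, of which 29.5% were higher and 32.7% lower in CK. A call here means a Benjamini-Hochberg adjusted p under 0.05 in limma, a linear model with pooled variances. The median log2 difference of the tested genes was 0.25 in CK versus WT, 0.02 in KO versus WT and 0.24 in CK versus KO, beside -0.01, 0.01 and -0.02 over all genes. The comparisons share arrays and are not independent of each other. At a difference of at least 1.5-fold, 10 genes were called in CK versus WT, 9 in KO versus WT and 13 in CK versus KO, against 25.3%, 18% and 25.7% of all genes. The arrays of the groups did not overlap for 23 of the 32 genes in CK versus WT, 26 in KO versus WT and 23 in CK versus KO, against 67.3%, 60.9% and 67.5% of all genes. Aldoc and Egln3 passed the level filter through the genotype where they were high, and Slc2a3 and Adm read below 7.24 in KO, so a fold of these 4 genes is one of measured values, with 1 or more levels not shown to be above background.

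**Figure D1:**
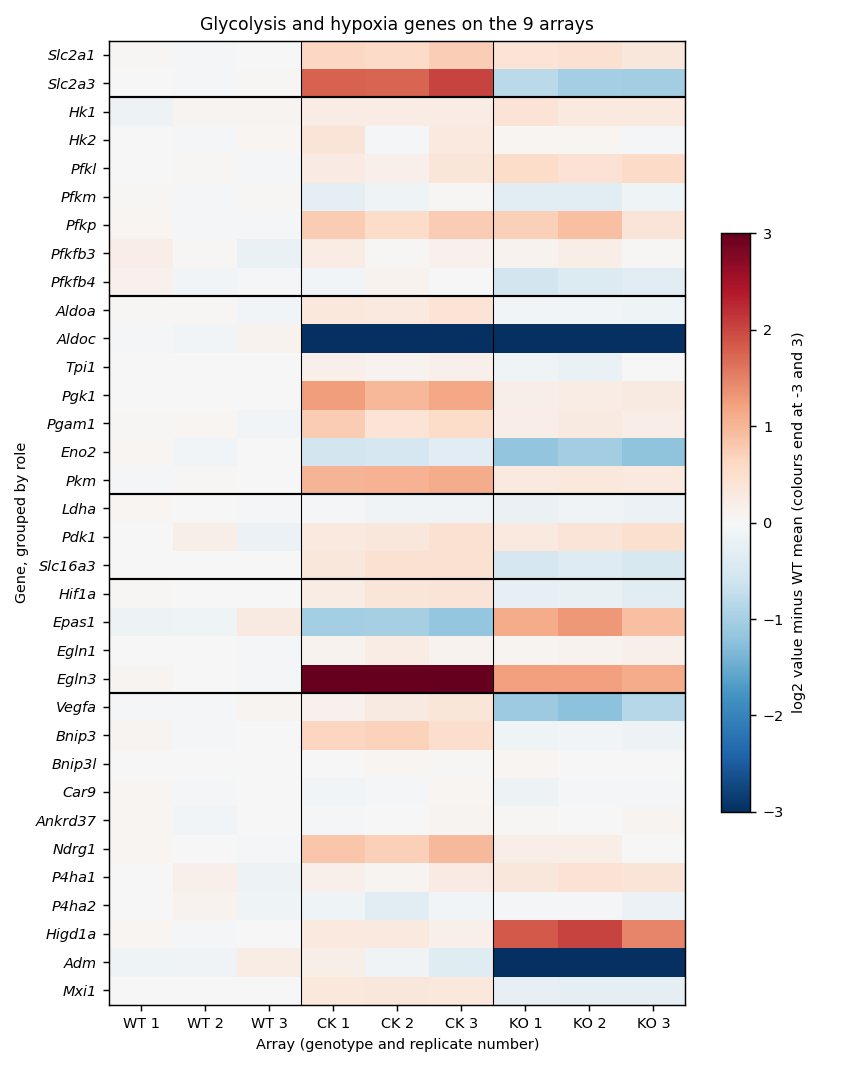
Heat map of the 34 measured genes, in rows by role, on the 9 arrays, in columns. Colour gives the log2 value minus the WT mean of that gene, from blue (lower) to red (higher), with colours ending at -3 and 3. Egln3 is dark red on the 3 CK arrays, Aldoc is dark blue on all CK and KO arrays and Adm is dark blue on the 3 KO arrays only.

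Glucose transporters differed between the mutants. Slc2a1, the widespread basal glucose transporter GLUT1, read 11.58, 11.50 and 11.57 on the WT arrays, 12.16, 12.12 and 12.28 on the CK arrays and 11.96, 12.01 and 11.88 on the KO arrays. The 3 genotypes did not overlap, with CK highest and WT lowest. It rose 1.56-fold in CK (log2 difference 0.64, SE 0.06, limma adjusted p = 5.63e-06) and by 0.40 in KO (limma adjusted p = 0.000261). Slc2a3, the high-affinity transporter GLUT3, read 8.12, 8.06 and 8.14 in WT, 9.87, 9.85 and 10.14 in CK and 7.30, 7.08 and 7.06 in KO. CK arrays were the highest and KO arrays the lowest, again with no overlap. The gene rose 3.59-fold in CK (log2 difference 1.84, SE 0.09, limma adjusted p = 3.54e-08), fell by 0.96 in KO (limma adjusted p = 6.61e-06), and was 6.98-fold higher in CK than in KO (limma adjusted p = 1.18e-09). The KO mean lies below 7.24, so its level there is not shown to be above background.

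Of the 7 measured genes for the hexokinase and phosphofructokinase steps, 3 rose and none fell in CK (42.9% called in limma, against 62.9% of all genes), while 3 rose and 2 fell in KO (71.4%, against 51.2%). Pfkp, the platelet-type phosphofructokinase subunit, moved most. It read 9.26, 9.18 and 9.18 in WT, 9.98, 9.76 and 9.98 in CK and 9.93, 10.12 and 9.60 in KO. Both mutants lay above every WT array and overlapped each other. Pfkp rose by 0.70 in CK (SE 0.12, limma adjusted p = 0.000348) and by 0.67 in KO (limma adjusted p = 0.000649). Pfkl, the liver-type subunit, rose by 0.26 in CK and by 0.52 in KO, and KO was above CK (CK versus KO -0.25, limma adjusted p = 0.00742). Pfkm, the muscle-type subunit, went the other way in KO (log2 difference -0.26, limma adjusted p = 0.0222), a call lost when KO replicate 1 (adjusted p = 0.0757) or 2 (0.0830), or WT replicate 1 (0.0737) or 3 (0.0600), was left out. In CK its difference of -0.13 was not called. Pfkfb4, which makes and breaks the phosphofructokinase activator fructose 2,6-bisphosphate, fell in KO (log2 difference -0.42, limma adjusted p = 0.00132) and had a difference of 0.00 in CK. Its relative Pfkfb3 was not called in any comparison, with differences between 0.02 and 0.13.

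Calls of the hexokinases, which trap glucose as its phosphate, depended on an array or a probe set. Hk2 differed by 0.21 in CK (limma adjusted p = 0.0894) and 0.02 in KO. Without CK replicate 2, which read 8.77 against 9.21 and 9.11 on the other CK arrays, the CK difference was 0.34 (limma adjusted p = 0.00172), and the difference from KO was 0.32 (adjusted p = 0.00245). Hk1 has a pair of single-symbol probe sets that disagree. The brightest rose from 13.11 ± 0.13 in WT to 13.32 in CK, where the arrays lay within 13.32 to 13.33, and to 13.44 ± 0.06 in KO. It was called higher in CK (0.22, limma adjusted p = 0.0170) and in KO (0.34, limma adjusted p = 0.00190). Leaving out WT replicate 1 ended the CK call (0.14, adjusted p = 0.0602). On the other probe set WT had 10.76 ± 0.04, CK 10.64 ± 0.12 and KO 10.87 ± 0.09 (SD, 3 arrays each), and it was not called against WT in CK (-0.12, adjusted p = 0.167) or in KO (0.11, adjusted p = 0.227). The brightest probe set is listed with 1 accession and the other with 8, and 15 further probe sets name Hk1 together with other symbols.

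Genes of the lower glycolytic steps were mostly higher in CK, with 4 of 7 tested raised and 2 reduced (85.7% called, against 62.9% of all genes), while 3 rose and 2 fell in KO (71.4%, against 51.2%). Pgk1, phosphoglycerate kinase, the first enzyme of the pathway that makes ATP, read 11.38, 11.36 and 11.37 in WT, 12.63, 12.37 and 12.52 in CK and 11.55, 11.58 and 11.64 in KO. The CK arrays stood above all others and the KO arrays just above WT. Pgk1 rose 2.19-fold in CK (log2 difference 1.13, SE 0.07, limma adjusted p = 1.58e-07) and by 0.22 in KO (limma adjusted p = 0.0171), a KO call lost without KO replicate 3 (0.20, adjusted p = 0.0538). Pkm, pyruvate kinase, which makes ATP at the last step, read 11.51, 11.56 and 11.54 in WT, 12.56, 12.57 and 12.65 in CK and 11.84, 11.86 and 11.83 in KO. The order was the same as for Pgk1, with no overlap. Pkm rose 2.08-fold in CK (log2 difference 1.06, SE 0.05, limma adjusted p = 2.66e-08) and by 0.31 in KO (limma adjusted p = 0.000402). Its splice forms M1 and M2 were not told apart here. Pgam1, phosphoglycerate mutase, rose by 0.57 in CK (limma adjusted p = 0.000131) and by 0.23 in KO (limma adjusted p = 0.0424). The KO call of Pgam1 was lost without WT replicate 1 (0.0779), 2 (0.0554) or 3 (0.134), CK replicate 3 (0.0540), or KO replicate 1 (0.0787), 2 (0.119) or 3 (0.0672), each an adjusted p.

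Aldolase and enolase isozymes did not move together. Aldoa, the main aldolase of fibroblasts and muscle, rose by 0.34 in CK (limma adjusted p = 0.000437) and differed by -0.11 in KO (adjusted p = 0.153). Aldoc, the aldolase best known from brain, read 9.46, 9.43 and 9.62 in WT, 6.29, 6.20 and 6.44 in CK and 6.34, 6.32 and 6.47 in KO. Every mutant array was below every WT array, and the mutants overlapped. Aldoc fell by 3.20 in CK (SE 0.08, limma adjusted p = 2.92e-10) and fell by 3.13 in KO (SE 0.08, limma adjusted p = 2.69e-10), 9.16-fold and 8.74-fold in measured values, and CK and KO differed by -0.07 (adjusted p = 0.478). Both mutants read below 7.24, so their Aldoc levels are not shown to be above background. Eno2, the enolase best known from neurons, read 10.74, 10.60 and 10.67 in WT, 10.12, 10.17 and 10.35 in CK and 9.48, 9.63 and 9.47 in KO. The 3 genotypes did not overlap, with WT highest and KO lowest. Eno2 fell by 0.46 in CK (limma adjusted p = 0.000341) and fell by 1.15 in KO (SE 0.08, limma adjusted p = 4.32e-07). Tpi1, triose phosphate isomerase, was 0.24 higher in CK than in KO (limma adjusted p = 0.00657). Against WT it differed by 0.14 in CK (adjusted p = 0.0745) and -0.10 in KO (adjusted p = 0.211), differences that were called without KO replicate 3 (adjusted p = 0.0353 and 0.0379).

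**Figure D2:**
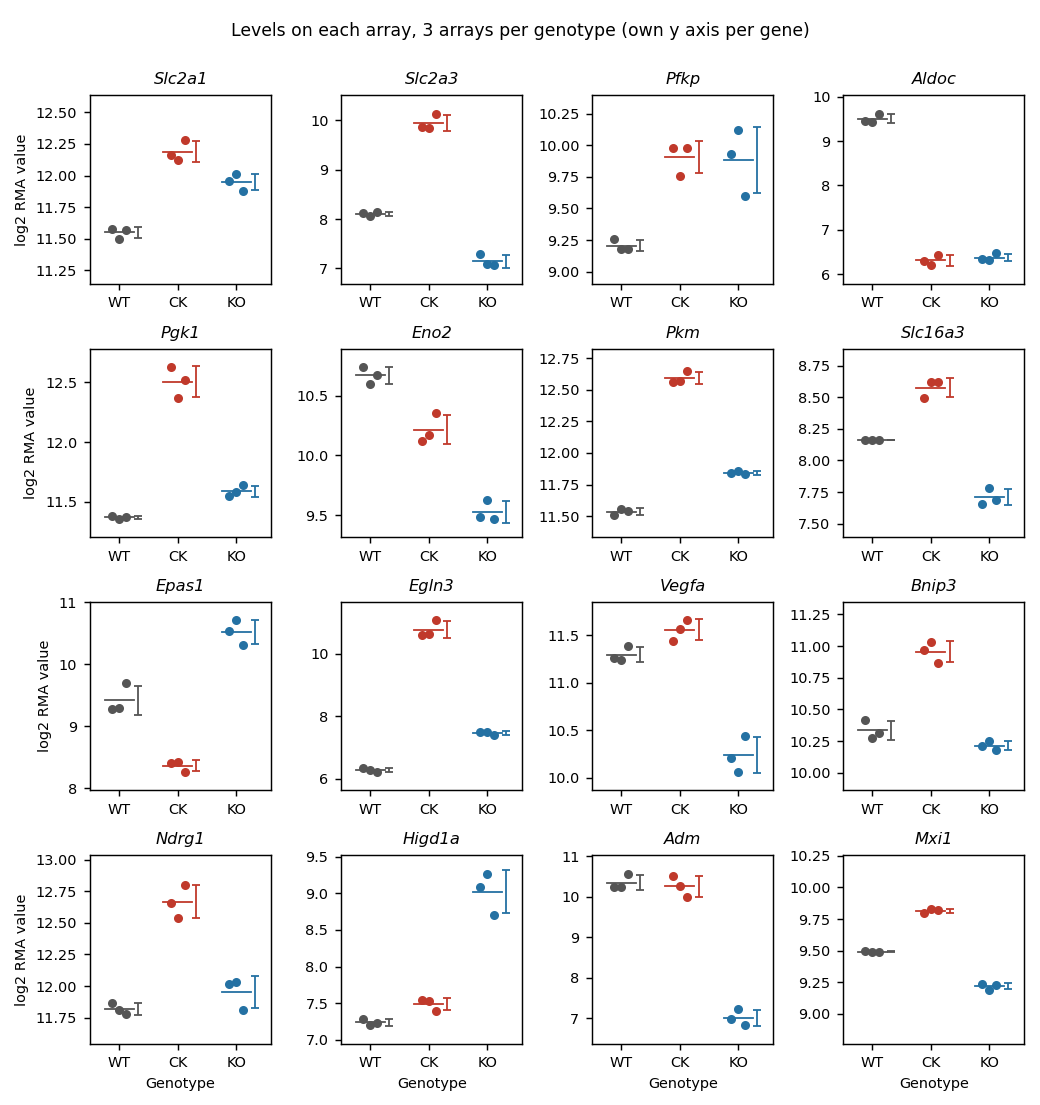
Log2 values of the 16 genes that were called with at least a 1.5-fold difference in some comparison, 1 panel per gene with its own y axis. Points are arrays, horizontal lines are means of 3 arrays and bars beside them span 1 SD to each side. Slc2a3, Pgk1, Pkm, Egln3, Bnip3 and Ndrg1 are highest on the CK arrays, Epas1 and Higd1a on the KO arrays, and Aldoc and Eno2 on the WT arrays.

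Among the 3 genes that direct pyruvate, no difference from WT reached 1.5-fold. Ldha, the lactate dehydrogenase subunit that favours lactate, had a mean of 12.66 ± 0.05 in WT, 12.57 ± 0.03 in CK and 12.50 ± 0.04 (SD) in KO. It fell by 0.16 in KO (limma adjusted p = 0.0243), a call that ended when KO replicate 1 (adjusted p = 0.0916) or 3 (0.0608), or WT replicate 1 (0.0872) or 2 (0.0590), was left out, and the CK difference of -0.08 was not called (adjusted p = 0.185). Pdk1, a kinase that holds back pyruvate dehydrogenase, rose by 0.36 in CK (limma adjusted p = 0.00589) and by 0.38 in KO (limma adjusted p = 0.00539). Slc16a3, the lactate exporter MCT4, read 8.16 on all 3 WT arrays, 8.49, 8.62 and 8.62 in CK and 7.66, 7.78 and 7.69 in KO. CK lay above and KO below the WT arrays. Slc16a3 rose by 0.42 in CK (limma adjusted p = 8.60e-05), fell by 0.45 in KO (limma adjusted p = 7.00e-05) and was 1.83-fold higher in CK than in KO (SE 0.06 on the log2 scale, limma adjusted p = 2.89e-07).

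**Figure D3:**
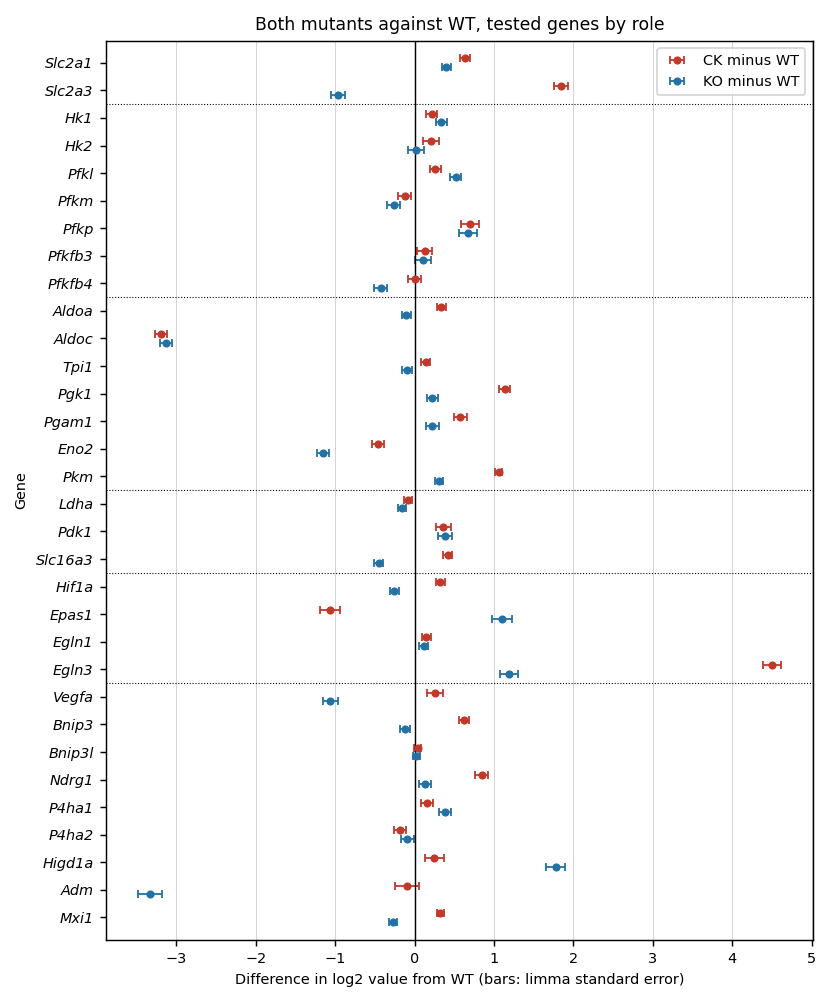
Log2 differences of the 32 tested genes from WT, CK in red and KO in blue, with limma standard errors as bars and dotted lines between the roles. Egln3 stands at 4.50 in CK and 1.19 in KO, Aldoc at -3.20 and -3.13, and Adm at -0.10 and -3.33, while Bnip3l lies at 0.04 and 0.02.

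Subunits of HIF itself moved in opposite directions. Hif1a, the HIF-1 alpha subunit, rose by 0.33 in CK (limma adjusted p = 0.000625) and fell by 0.26 in KO (limma adjusted p = 0.00397). Its arrays read 12.23, 12.20 and 12.18 in WT, 12.42, 12.56 and 12.60 in CK and 11.96, 11.98 and 11.89 in KO, so the genotypes did not overlap. Epas1, the HIF-2 alpha subunit, had the opposite order. It read 9.27, 9.29 and 9.69 in WT, 8.40, 8.42 and 8.26 in CK and 10.54, 10.71 and 10.31 in KO. Every KO array was above and every CK array below every WT array. Epas1 fell by 1.06 in CK (SE 0.13, limma adjusted p = 3.19e-05), rose by 1.10 in KO (limma adjusted p = 3.53e-05), and was 4.47-fold lower in CK than in KO (limma adjusted p = 1.24e-07). These are RNA levels, and HIF alpha subunits are known to be controlled chiefly by protein stability.

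Among the prolyl hydroxylases, Egln3 (PHD3) was high in CK. It read 6.34, 6.26 and 6.21 in WT, 10.59, 10.64 and 11.07 in CK and 7.50, 7.49 and 7.39 in KO. The genotypes did not overlap, with CK far above KO and KO above WT. Egln3 rose 22.6-fold in CK in measured values (log2 difference 4.50, SE 0.11, limma adjusted p = 3.01e-10) and 2.28-fold in KO (1.19, limma adjusted p = 6.94e-06). The WT level is below 7.24, so these folds may understate the change in RNA. Egln1 (PHD2), the main oxygen sensor of most cells, rose by 0.15 in CK (limma adjusted p = 0.0352) and differed by 0.11 in KO (adjusted p = 0.106). Egln1 was no longer called in CK without WT replicate 1 (adjusted p = 0.0595), 2 (0.0631) or 3 (0.0938), CK replicate 2 (0.117), KO replicate 1 (0.0508) or KO replicate 2 (just past the threshold).

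Of the 9 tested hypoxia response genes outside glycolysis and HIF control, 4 rose and 0 fell in CK (44.4% called in limma, against 62.9% of all genes), while 2 rose and 3 fell in KO (55.6%, against 51.2%). The 2 secreted vascular factors were low in KO. Adm, which encodes the vasodilator peptide adrenomedullin, read 10.23, 10.24 and 10.57 in WT, 10.52, 10.25 and 9.98 in CK and 6.99, 7.22 and 6.83 in KO. KO arrays lay far below all others, and CK overlapped WT. Adm fell by 3.33 in KO (SE 0.15, limma adjusted p = 1.95e-08), 10.1-fold in measured values, to a level below 7.24, and its CK difference of -0.10 was not called (adjusted p = 0.598). Vegfa, the main angiogenic growth factor, read 11.26, 11.24 and 11.39 in WT, 11.44, 11.57 and 11.66 in CK and 10.21, 10.06 and 10.44 in KO. Only the KO arrays stood well apart. Vegfa fell by 1.06 in KO (SE 0.10, limma adjusted p = 5.58e-06) and was called higher in CK by 0.26 (limma adjusted p = 0.0371). Vegfa was no longer called in CK without CK replicate 2 (adjusted p = 0.0825) or 3 (0.124), WT replicate 1 (0.101) or 2 (0.107), or KO replicate 1 (0.0512).

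Bnip3, Ndrg1 and Mxi1 were highest in CK. Bnip3, a mitophagy receptor of the outer mitochondrial membrane, read 10.42, 10.27 and 10.31 in WT, 10.97, 11.03 and 10.87 in CK and 10.21, 10.25 and 10.18 in KO. It rose by 0.62 in CK (SE 0.06, limma adjusted p = 7.25e-06) and differed by -0.12 in KO (adjusted p = 0.125). Its relative Bnip3l was not called in any comparison, with differences of 0.04 in CK and 0.02 in KO. Ndrg1, a cytosolic protein strongly induced by hypoxia in many cell types, read 11.87, 11.81 and 11.78 in WT, 12.66, 12.54 and 12.80 in CK and 12.02, 12.03 and 11.81 in KO. CK arrays were above all others, and KO overlapped WT. Ndrg1 rose 1.80-fold in CK (SE 0.08 on the log2 scale, limma adjusted p = 5.94e-06), with a KO difference of 0.13 (adjusted p = 0.205). Mxi1, a transcriptional repressor that competes with Myc for its partner Max, read 9.50, 9.49 and 9.49 in WT, 9.80, 9.83 and 9.82 in CK and 9.24, 9.19 and 9.23 in KO. The genotypes did not overlap, and Mxi1 rose by 0.32 in CK (limma adjusted p = 9.55e-05) and fell by 0.27 in KO (limma adjusted p = 0.000476).

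Higd1a and P4ha1 were higher in KO. Higd1a, a small mitochondrial protein tied to the respiratory chain, read 7.29, 7.20 and 7.23 in WT, 7.54, 7.53 and 7.40 in CK and 9.09, 9.27 and 8.70 in KO. KO arrays stood apart, and CK arrays were slightly above WT. Higd1a rose 3.43-fold in KO (log2 difference 1.78, SE 0.12, limma adjusted p = 5.08e-07), and its CK difference of 0.25 was not called (adjusted p = 0.0919), though it was without KO replicate 2 (0.0417) or KO replicate 3 (0.00820). P4ha1, a subunit of the prolyl hydroxylase that matures collagen, rose by 0.38 in KO (limma adjusted p = 0.00203) and differed by 0.16 in CK (adjusted p = 0.104, and 0.0219 without WT replicate 2). It was lower in CK than in KO (-0.23, limma adjusted p = 0.0278), a call lost without CK replicate 1 (0.0668), CK replicate 2 (0.0943), KO replicate 2 (0.0874) or KO replicate 3 (0.0538). The isozyme P4ha2 was not called, with differences of -0.18 in CK (adjusted p = 0.0702) and -0.09 in KO. The CK difference of P4ha2 was called without WT replicate 3 (0.0233) or CK replicate 3 (0.0458). Car9, a carbonic anhydrase known as one of the steepest HIF-1 responders, read 6.11 to 6.32 over the 9 arrays, and Ankrd37 7.07 to 7.24. Neither level is shown to be above background, and neither was tested.

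Probe set position mattered for some of these values. Identifiers on this platform run along the chromosomes, and for 97.1% of named probe sets most of the 20 named neighbours on each side belong to genes of the same chromosome. The brightest probe sets of Bnip3 and Higd1a lie among identifiers of chromosome 14 and 3, while the genes are on chromosome 7 and 9, and that of Hk1 lies among those of chromosome 14 against chromosome 10. The sole probe set of Pgam1 lies among identifiers of chromosome 7, while the gene is on chromosome 19. For Bnip3 the probe set placed on its own chromosome gave 0.42 in CK (limma adjusted p = 0.000641) and -0.17 in KO, against 0.62 and -0.12 on the brightest, so the CK difference kept its direction and call but was below 1.5-fold. For Higd1a it gave 1.41 in KO (limma adjusted p = 1.81e-06) and 0.32 in CK, which was then called (adjusted p = 0.0255). Both probe sets of Pkm gave a rise in CK, by 1.06 and 1.09. The one with 1.09 lies among identifiers of chromosome 5, while the gene is on chromosome 9. The probe sequences were not used here.

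**Figure D4:**
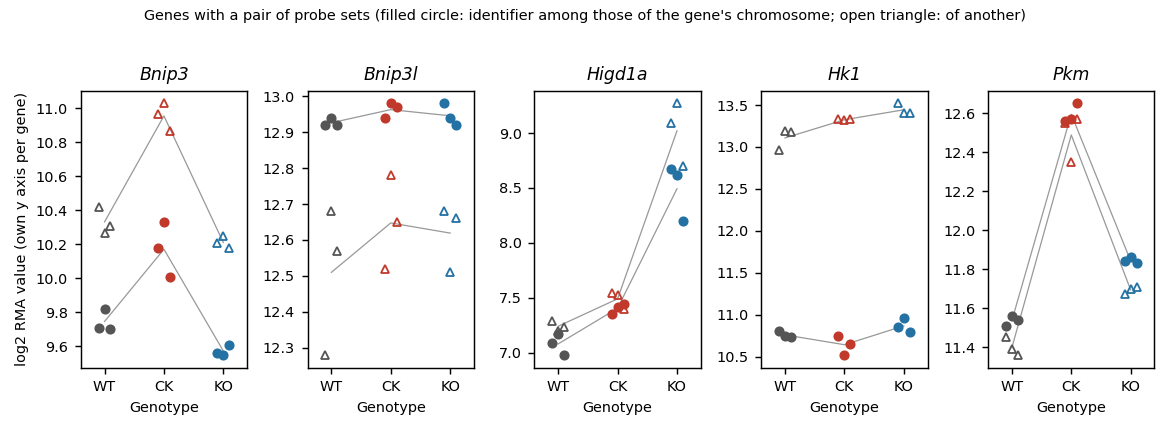
Log2 values on the 9 arrays of the 5 genes with a pair of single-symbol probe sets, each gene with its own y axis and grey lines joining the means. Filled circles mark the probe set whose identifier lies among those of the gene's chromosome and open triangles the other. Bnip3, Higd1a and Pkm show the same order of genotypes on both probe sets, while for Hk1 CK lies above WT on one and below it on the other.

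HIFs bind DNA at the hypoxia response element, whose core is ACGTG or GCGTG. The promoter windows of 4 genes are shown because they hold such a core and differed most between genotypes, in measured values, among genes with a window in the RefSeq table of build GRCm38.p6. Each runs 5′ to 3′ on the gene's strand over the 250 bases before the start site, and capitals mark the core on either strand (CACGT and CACGC are the same letters read from the other strand).
Egln3, chr12:54203875-54204124, minus strand: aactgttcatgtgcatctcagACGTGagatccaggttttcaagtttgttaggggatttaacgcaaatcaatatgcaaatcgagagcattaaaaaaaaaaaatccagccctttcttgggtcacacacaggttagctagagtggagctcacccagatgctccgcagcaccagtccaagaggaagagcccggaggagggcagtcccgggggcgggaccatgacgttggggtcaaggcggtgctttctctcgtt
Adm, chr7:110627407-110627656, plus strand: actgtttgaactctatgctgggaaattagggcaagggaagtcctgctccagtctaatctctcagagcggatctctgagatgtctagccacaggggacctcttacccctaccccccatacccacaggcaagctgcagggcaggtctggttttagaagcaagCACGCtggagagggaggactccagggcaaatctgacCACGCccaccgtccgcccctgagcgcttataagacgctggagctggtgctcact
Aldoc, first start, chr11:78322823-78323072, plus strand: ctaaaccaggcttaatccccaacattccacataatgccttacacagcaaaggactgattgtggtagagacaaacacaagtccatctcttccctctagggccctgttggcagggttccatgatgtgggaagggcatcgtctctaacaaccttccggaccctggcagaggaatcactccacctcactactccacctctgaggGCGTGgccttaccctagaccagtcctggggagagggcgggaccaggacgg
Aldoc, other start, chr11:78323948-78324197, plus strand: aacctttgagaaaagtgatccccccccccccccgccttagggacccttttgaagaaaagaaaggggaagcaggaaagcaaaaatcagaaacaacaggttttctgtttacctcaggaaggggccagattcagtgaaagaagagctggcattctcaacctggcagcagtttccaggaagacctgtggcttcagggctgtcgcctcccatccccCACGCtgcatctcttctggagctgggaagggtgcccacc
Higd1a, chr9:121857797-121858046, minus strand: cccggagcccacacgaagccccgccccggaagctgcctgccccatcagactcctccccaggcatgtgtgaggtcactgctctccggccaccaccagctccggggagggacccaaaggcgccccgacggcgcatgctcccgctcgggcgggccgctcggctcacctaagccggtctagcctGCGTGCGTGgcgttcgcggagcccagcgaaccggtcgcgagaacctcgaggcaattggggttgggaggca

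The Egln3 window, from a gene raised in both mutants, holds 1 ACGTG, 229 to 225 bases before the start. The Adm window, from a gene reduced in KO to a level below 7.24, holds 2 GCGTG on the other strand, the nearer 54 to 50 bases before the start. Each Aldoc window holds 1 GCGTG, 50 to 46 bases before the first start and 39 to 35 before the other, and Higd1a has 2 GCGTG that share a base, 70 to 62 bases before its start. These windows belong to a gene that rose in both mutants, a gene that fell in KO, a gene that fell in both mutants and a gene that rose in KO. None of these matches lies within the E-box CACGTG, a motif that contains ACGTG and is bound by other factors.

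Over the windows of 300 bases, 250 before to 50 after the start, 33 of the 37 genes had 49 windows. On either strand, 57.1% of these held ACGTG, against 19.6% of all 32851 windows in the table and 33.3% of the 108 windows of the pathway genes listed below. For GCGTG the shares were 53.1%, 32.4% and 55.6%, and for CACGTG 10.2%, 7.15% and 13.9%. The windows of these genes also had a median of 62.3% G and C and 20 CG dinucleotides, against 52.7% and 7 in all windows. In the windows of protein-coding genes the medians were 56.3% and 13, and 20.9% held ACGTG. The part of base composition in the motif shares was not tested. Hypoxia genes entered the list as known HIF responders, so the share is a description of the list. ACGTG stood in a window of 13 of the 16 genes with a window that rose in CK and of 7 of the 10 that were not called there, and the difference was not tested.

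Other genes of the pathways were read from lists that hold none of the 37. These lists too were chosen with earlier results of these data known, so their shares describe the lists only. Further HIF targets were mostly higher in CK. Of 31 tested genes, 18 rose and 7 fell in CK versus WT, with a median log2 difference of 0.56. The share called was 80.6%, against 62.9% of all genes, where 30.7% rose and 32.1% fell. In KO versus WT, 10 rose and 10 fell, with a median of 0.01. There 64.5% were called, against 51.2% of all genes. Pgf, a placental relative of Vegfa, read 6.75, 6.83 and 6.74 in WT, 8.70, 8.56 and 8.79 in CK and 6.58, 6.52 and 6.48 in KO, and rose by 1.91 in CK (limma adjusted p = 2.90e-09). Its WT and KO levels are below 7.24. Tfrc, the transferrin receptor for iron uptake, rose by 1.92 in CK and by 1.10 in KO. Angptl4, a secreted inhibitor of lipoprotein lipase, read 9.79 on all 3 WT arrays, 11.58, 11.43 and 11.57 in CK and 8.06, 8.10 and 7.87 in KO. It went opposite ways, by 1.74 in CK and -1.78 in KO, a CK versus KO difference of 3.52 (11.5-fold, limma adjusted p = 7.10e-11). The WT values of Angptl4 were identical (SD 0), and 238 tested genes had identical values within some genotype. Such ties lower the spread on which the p-value rests. Stc1, a secreted glycoprotein, was 2.93 higher in CK than in KO in measured values (limma adjusted p = 2.13e-09), with a KO mean of 7.03, below 7.24. Selenbp1, a selenium-binding protein, had the reverse order, with -2.07 in CK, to a mean of 6.30, and 1.78 in KO, and Lox, the lysyl oxidase that crosslinks collagen, fell by 0.68 in KO. Of the 38 genes listed 36 had a probe set, and a gene that is high in 1 genotype can pass the filter through it, so these counts depend in part on the changes.

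**Figure D5:**
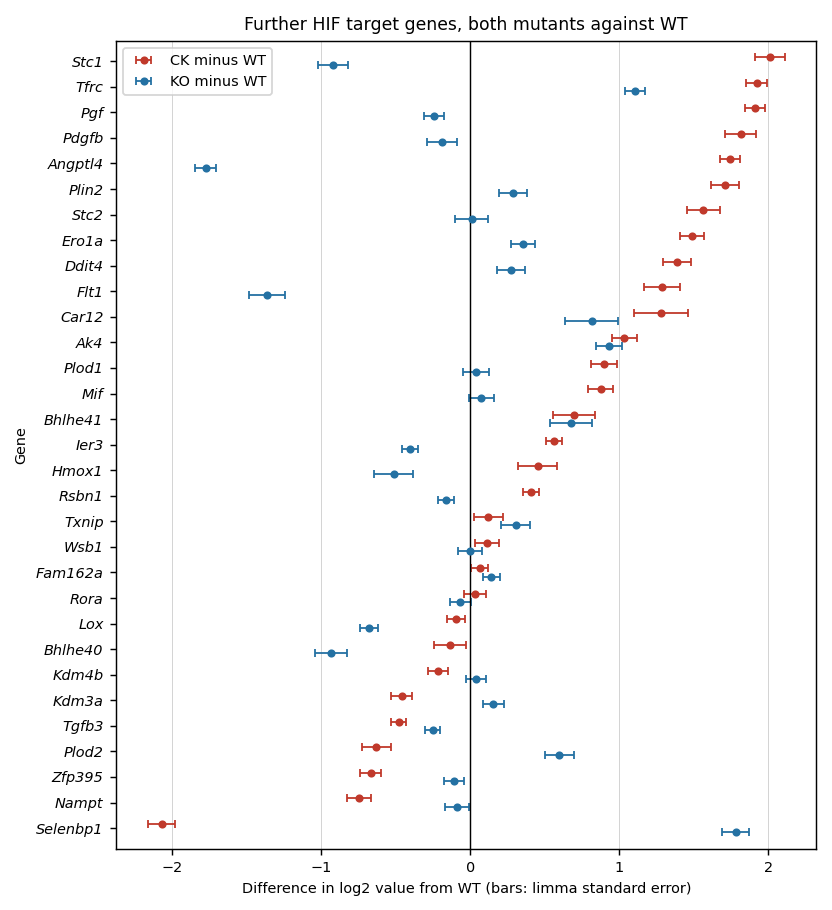
Log2 differences from WT of the 31 tested further HIF target genes, CK in red and KO in blue, with limma standard errors as bars, sorted by the CK difference. Stc1, Tfrc and Pgf lie furthest right in CK and Selenbp1 furthest left at -2.07, while in KO Angptl4 lies at -1.78 and Selenbp1 at 1.78.

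Of 13 tested regulators of the HIF pathway, 1 rose and 3 fell in CK and 3 rose and 1 fell in KO, which is 30.8% called in each, below the 62.9% and 51.2% of all genes. Arnt2, a partner subunit of HIF alpha, had arrays at 10.97, 10.95 and 10.95 in WT, 9.40, 9.24 and 9.38 in CK and 8.98, 9.15 and 8.55 in KO. It fell by 1.62 in CK (limma adjusted p = 1.17e-06) and fell by 2.06 in KO (limma adjusted p = 2.15e-07). Arnt, another partner subunit, had means of 11.91 in WT, 11.96 in CK and 11.99 in KO and was not called against WT. Vhl, which recognises hydroxylated HIF for degradation, and the prolyl hydroxylase Egln2 fell by 0.69 and fell by 0.66 in CK, with the 3 CK arrays of Vhl at 9.51, 9.77 and 9.76 against 10.47, 10.40 and 10.25 in WT. Siah2, a ubiquitin ligase for prolyl hydroxylases, rose by 0.39 in CK. In KO, Cited2, which competes with HIF for its coactivators, rose by 0.43, Hif1an, the asparagine hydroxylase that blocks HIF activity, by 0.44 and the coactivator Crebbp by 0.14.

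Among 12 tested other glycolytic isozymes, transporters and regulators, 4 rose and 5 fell in CK (75% called, against 62.9% of all genes) and 3 rose and 4 fell in KO (58.3%, against 51.2%). Ldhb, the lactate dehydrogenase subunit of oxidative tissues, read 11.09, 10.93 and 11.05 in WT, 8.85, 8.60 and 8.68 in CK and 10.83, 10.86 and 10.82 in KO. CK arrays stood far below the rest, and Ldhb fell by 2.32 in CK (SE 0.07, limma adjusted p = 1.22e-09), while Ldha, above, was not called there. Slc16a1, the monocarboxylate transporter MCT1, rose by 1.31 in CK, and Slc16a7 (MCT2) fell by 2.77 in CK and fell by 2.41 in KO. Slc2a4, the insulin-responsive transporter GLUT4, fell by 1.07 in CK and fell by 1.03 in KO in measured values, to means of 6.93 and 6.97. Bpgm, which makes 2,3-bisphosphoglycerate, fell by 0.98 in KO, to a mean of 7.18. These mutant levels lie below 7.24 and are not shown to be above background. Pgm1, which links glycogen to glycolysis, rose by 0.55 in KO and was lower in CK than in KO (log2 difference -0.73). The muscle enolase Eno3 was 1.08 higher in CK than in KO.

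Of 12 tested genes that serve the entry of pyruvate into mitochondria, 4 rose and 4 fell in CK, 6 rose and 4 fell in KO, and 5 were higher and 7 lower in CK than in KO. The shares called were 66.7%, 83.3% and 100%, against 62.9%, 51.2% and 62.2% of all genes. Pdp1, the phosphatase that reactivates pyruvate dehydrogenase, read 12.07, 12.03 and 11.97 in WT, 10.56, 10.55 and 10.55 in CK and 12.65, 12.81 and 12.51 in KO. It fell by 1.47 in CK (limma adjusted p = 4.08e-08), rose by 0.63 in KO (limma adjusted p = 3.34e-05) and was 4.29-fold lower in CK than in KO. Pdk2 and Pdk3, kinases that oppose Pdp1, fell by 1.09 and rose by 0.48 in CK, and Pdk4, another such kinase, was 1.75 higher in CK than in KO. The pyruvate dehydrogenase subunit genes Pdha1 and Pdhb rose by 0.43 and 0.33 in KO, Dlat rose by 0.46 in CK, and Pcx, pyruvate carboxylase, rose by 0.62 in KO.

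Of 6 tested genes of the pentose phosphate pathway, which branches from glycolysis to make NADPH and ribose, 3 rose and 1 fell in CK. In KO, 2 rose and 1 fell. The shares called, 66.7% and 50%, were close to the 62.9% and 51.2% of all genes. Tkt, transketolase, rose by 0.62 in KO, and Pgd, a NADPH-making dehydrogenase, rose by 0.55 in CK and fell by 0.36 in KO. Of 8 tested genes of glycogen and gluconeogenesis, 2 rose and 4 fell in CK (75% called, against 62.9% of all genes). In KO, 2 rose and 3 fell (62.5%, against 51.2%). Pygl, the liver-type glycogen phosphorylase, fell by 2.37 in CK and fell by 2.54 in KO (limma adjusted p = 4.84e-09), to means below 7.24 in both. It passed the level filter through WT, where its mean was 9.38. Pck2, the mitochondrial PEP carboxykinase, rose by 0.96 in CK (limma adjusted p = 1.15e-06).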

How the data were processed

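RNA of 9 samples was measured on arrays, 3 per genotype. The submitters' processing notes name RMA and affy for the deposited values, and their versions are not given in the sources used here. RMA corrects background, quantile-normalizes the arrays and gives log2 values, which hides any shift in total RNA. The deposited strings of 10 to 15 digits had lost their decimal mark, and the unit of the deposited column is therefore other than a plain number. Strings starting with 1 read at most 1.44 and all others at least 4.28 with the mark after the 1st digit, so the former were read as 10 or more.

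The platform annotation gave 1 symbol to 21640 of 34760 probe sets, several to 1321 and none to 11799; 21553 were matched to RefSeq gene identifiers (GRCm38.p6). The 9 arrays entered 1 limma fit (limma 3.58.1, R 4.3.3), with Benjamini-Hochberg adjustment over 11962 genes. The fit was tested on simulated data. Of the 37 genes, those called with at least a 1.5-fold difference whose groups do not overlap have every array's value given; arrays of Hif1a, Hk2 and some genes of the other lists are shown beside this rule. In each pathway list, up to 4 called genes with the smallest adjusted p in a comparison are named, and Arnt is named beside them. Members and lists were chosen with earlier results of these data known. Protein sequences were not used here. The number of arrays limits the precision.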

Additional observations from a re-analysis of the deposited data

Results flagged for a closer look

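Against WT, 6 genes were called in opposite directions in the 2 mutants. Their differences between CK and KO follow from these opposite differences and are no further result. The share of all genes called in opposite directions was not counted. Of all genes, 62.9% were called in CK versus WT and 51.2% in KO versus WT, so the 6 are not shown to be more than that share. The CK minus KO log2 difference was 2.80 for Slc2a3, 1.32 for Vegfa, 0.87 for Slc16a3, 0.60 for Mxi1, 0.58 for Hif1a and -2.16 for Epas1. Against the shared WT arrays these genes differed by 1.84, 0.26, 0.42, 0.32, 0.33 and -1.06 in CK, and by -0.96, -1.06, -0.45, -0.27, -0.26 and 1.10 in KO. Epas1 was the only one of these with KO above CK. The CK versus WT call of Vegfa was lost without some single arrays and without the filter on dim genes.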

How the results depend on the processing

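At adjusted p under 0.05, all settings tried, leaving out arrays included, gave 14 to 20 genes higher and 2 to 4 lower in CK versus WT, 9 to 13 and 7 to 14 in KO versus WT, and 13 to 18 and 3 to 5 in CK versus KO. The 7 lower genes in KO came with the filter at the 60th percentile, which tests fewer genes. Requiring at least a 1.5-fold difference left 4 higher and 5 lower in KO versus WT, where 2155 of all genes were called in either direction. It left 8 higher and 2 lower in CK versus WT (3025 of all genes), and 11 higher and 2 lower in CK versus KO (3078). The Cdkn1b call in CK versus WT (-0.37) ended under this setting. Averaging probe sets reduced the Cdkn1b difference in KO to -1.96, since its dim probe set did not fall. With a probe set placed on the gene's own chromosome, an alternative chosen after seeing the data, Hk1 turned from 0.22 to -0.12 in CK versus WT and was not called. Without the filter on dim genes the CK call of Vegfa was lost (adjusted p = 0.0590). Under the replicate block, Pgam1 in KO (adjusted p = 0.0531) and Egln1 in CK (adjusted p = 0.0588) were no longer called and 17 genes rose in CK. Whether equal replicate numbers mark arrays that belong together is not stated. Deviations of same-numbered arrays from their genotype means correlated at -0.30 to 0.36 and were closest to their own number in 4 of 18 cases. With 3 arrays per genotype, this check cannot decide whether the arrays are paired. Without any one array, 19 of 23 calls in KO versus WT, 18 of 21 in CK versus WT and 20 of 21 in CK versus KO were kept in every fit. Levels near 7.24 or below have no detection call, which limits Egln3, Aldoc, Adm, Slc2a3, Higd1a, Slc2a4, Bpgm, Stc1, Pgf, Pygl and Selenbp1.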
